A study of Rattus norvegicus with 2 samples.

Results

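Barcodes rich in haemoglobin RNA were defined in 2 single-cell libraries of the rat hypothalamus as those with 20% or more of their unique molecular identifiers (UMIs, each standing for 1 captured RNA molecule) in globin genes. The rule took 6 features of the gene table, namely Hbb, Hba-a3, 2 features both named Hba-a2, LOC103694857 and LOC100134871. It found 301 of 9012 barcodes, 172 of 4488 in Control and 129 of 4524 in SC300, with no filter on the number of genes. The barcodes were chosen by their globin UMIs, so the globin share is given below as a description only.

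Control and SC300 were each 1 library, made from the pooled hypothalami of 3 female Sprague Dawley rats at postnatal day (PND) 29. From PND 0.5 on, the rats of the SC300 group bore a silicone capsule loaded with 300 µg of the estrogen ester estradiol benzoate. The Control library is titled intact, and the study's methods describe its control rats as carrying capsules with oil alone. Both tissues covered the anteroventral periventricular and arcuate areas, were dissociated with collagenase and went through the same droplet kit. With 1 library a group, animals, dissections and treatment cannot be told apart, so no test was made. Every interval below is a 95% interval for counting error only. Control held 52004789 UMIs in all (median 7697 per barcode) and SC300 held 57013099 (median 8022).

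Red cells make haemoglobin from alpha and beta globin chains and haem, an iron-bearing ring that is built partly in the mitochondria. As a red cell matures it loses its nucleus, organelles and most other RNA, and globin messages come to dominate what is left. The hypothalamus makes no red cells of its own. Blood vessels run through it, lined by endothelial cells and wrapped by mural cells (pericytes and smooth muscle).

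Promoters of 6 genes on which the results below turn are printed first. Alas2 marked nearly all of the barcodes, and Klf1 and Lgals5 stood at opposite ends of the red cell genes compared between the libraries. The globin genes Hbb, LOC100134871 and Hba-a3 differed most between the libraries in their share of globin UMIs when taken as a ratio. Each is the 250 bases before the annotated start in RefSeq (build GRCr8), 5′ to 3′ on the strand of the gene. The genes were matched by symbol or gene number, and RefSeq names LOC100134871 Hbbl1. GRCr8 is not the build of the deposited counts. Capitals mark matches to GATA words (AGATAA or AGATAG, or else TGATAA or TGATAG) or to the CACCC-type word CCNCNCCC, on either strand. GATA1 and KLF1, the red cell factors for which such words are known, are background and were not measured at these sites.
Alas2 (chrX:22895200-22895449, plus strand): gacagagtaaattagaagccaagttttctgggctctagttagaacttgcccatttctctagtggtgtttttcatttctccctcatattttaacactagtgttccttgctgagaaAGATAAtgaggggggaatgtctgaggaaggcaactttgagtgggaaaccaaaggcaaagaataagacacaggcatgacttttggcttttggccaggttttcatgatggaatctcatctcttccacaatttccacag
Klf1 (chr19:40158652-40158901, minus strand): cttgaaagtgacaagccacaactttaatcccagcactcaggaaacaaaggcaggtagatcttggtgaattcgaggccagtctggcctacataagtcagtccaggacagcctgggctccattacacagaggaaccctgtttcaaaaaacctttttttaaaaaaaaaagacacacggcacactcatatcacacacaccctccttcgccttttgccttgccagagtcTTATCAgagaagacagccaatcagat
Lgals5 (chr10:64355138-64355387, minus strand): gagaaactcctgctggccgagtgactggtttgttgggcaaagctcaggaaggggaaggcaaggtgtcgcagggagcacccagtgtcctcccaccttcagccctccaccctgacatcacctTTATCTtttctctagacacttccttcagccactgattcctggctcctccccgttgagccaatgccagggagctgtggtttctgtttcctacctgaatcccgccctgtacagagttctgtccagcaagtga
Hbb (chr1:167663722-167663971, minus strand): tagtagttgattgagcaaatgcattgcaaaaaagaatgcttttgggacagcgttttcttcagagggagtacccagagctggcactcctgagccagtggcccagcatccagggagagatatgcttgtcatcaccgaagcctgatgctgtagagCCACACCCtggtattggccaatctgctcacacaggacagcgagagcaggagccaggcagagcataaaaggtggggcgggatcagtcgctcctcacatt
LOC100134871 (chr1:167650236-167650485, minus strand): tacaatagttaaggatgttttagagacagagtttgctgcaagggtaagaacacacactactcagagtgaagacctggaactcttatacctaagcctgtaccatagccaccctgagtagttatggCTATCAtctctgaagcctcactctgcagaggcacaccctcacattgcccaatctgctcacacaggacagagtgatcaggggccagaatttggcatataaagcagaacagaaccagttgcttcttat
Hba-a3 (chr10:15816944-15817193, minus strand): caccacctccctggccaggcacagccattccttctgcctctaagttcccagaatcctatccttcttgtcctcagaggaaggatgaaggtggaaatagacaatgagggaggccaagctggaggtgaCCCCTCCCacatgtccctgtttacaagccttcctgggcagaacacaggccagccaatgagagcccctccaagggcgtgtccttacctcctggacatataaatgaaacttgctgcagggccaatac
The matches lay 136 bases before the start in Alas2, 26 in Klf1, 130 in Lgals5 and 126 in LOC100134871 for a GATA word, and 98 in Hbb and 125 in Hba-a3 for the CACCC-type word. A GATA word occurred in 27.0% of all 33469 promoter windows of this length and the CACCC-type word in 42.8%. Of the 61 erythroid genes listed for this work, 43 had a window by symbol, and a GATA word lay in 43.1% of their 51 windows and the CACCC-type word in 66.7%. A match is a run of letters and not a bound site.

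Barcodes rich in haemoglobin RNA were 3.83% of Control (95% exact binomial interval 3.29 to 4.44) and 2.85% of SC300 (2.39 to 3.38). The log2 ratio of the shares, SC300 over Control, was -0.43 (-0.77 to -0.089). These barcodes held 96.03% of all globin UMIs in Control and 94.99% in SC300.

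Most of these barcodes held little besides globin. The globin share lay at 80% or more in 124 Control and 83 SC300 barcodes, called high-globin barcodes here, and between 20 and 80% in 48 and 46, called part-globin barcodes. The former were 2.76% of Control and 1.83% of SC300, a log2 ratio of -0.59 (-1.01 to -0.18). The latter were 1.07% and 1.02%, a log2 ratio of -0.07 (-0.69 to 0.54), so the lower share in SC300 was seen in the high-globin class only. The limit of 80% was set after the shares had been seen. Of the high-globin barcodes, 114 Control and 73 SC300 barcodes had 90% or more globin. The share nearest above the 20% limit was 22.8% (Control) or 20.5% (SC300), with 19.6% and 18.3% just below, so no gap marks the limit.

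The high-globin barcodes were shallow outside globin. They had a median of 9913.5 UMIs in Control and 12896 in SC300, but only 470.5 and 577 of these were not globin, spread over a median of 201.5 and 209 genes. A minimum of 200 genes is named in the study's methods, and 59 Control and 37 SC300 barcodes rich in haemoglobin RNA fell below that, all of them high-globin. The part-globin barcodes were deep, with medians of 23554.5 and 25355.5 UMIs and 3333.5 and 3548 genes. The other barcodes had medians of 7596 and 7915 UMIs and 2525 and 2543 genes. The part-globin barcodes thus had more UMIs and more genes than the typical barcode of either library, with 11638.5 and 12903.5 non-globin UMIs at the median against 7586.5 and 7912.

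**Figure D1:**
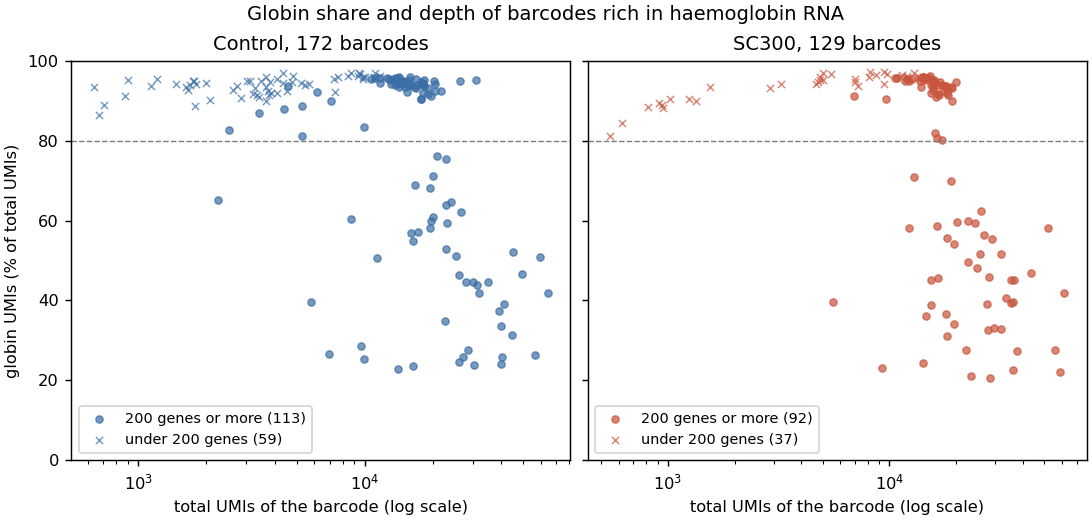
Globin share (% of UMIs, linear axis from 0) against total UMIs (log axis) for each of the 172 Control and 129 SC300 barcodes rich in haemoglobin RNA; circles are barcodes with 200 genes or more, crosses those with fewer, and the dashed line is 80%. In both libraries a dense group lies above 80% globin and a scattered, deep group of 48 and 46 barcodes lies between 20 and 80%.

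Globin RNA outside these barcodes differed between the libraries. The other barcodes held a median of 0.0602% globin UMIs in Control (quartiles 0.0322 and 0.111%) and 0.0134% in SC300 (0 and 0.0257%). No globin UMI was found in 73 of 4316 other Control barcodes and in 1101 of 4395 other SC300 barcodes. Free globin RNA in the suspension gives such UMIs, and its part in the comparison of the libraries was not tested. The 2 libraries shared 9 barcode sequences, of which 2 in Control and 1 in SC300 were rich in haemoglobin RNA. The doublet caller Scrublet was run on barcodes with 200 or more genes, among them 113 Control and 92 SC300 barcodes rich in haemoglobin RNA, and marked 3 of the former, all part-globin, and none of the latter, out of 70 and 73 calls in all.

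Globin genes were used in unequal amounts and their mix differed between the libraries. In the high-globin barcodes LOC103694857 took 54.7% of globin UMIs in Control and 54.4% in SC300, the second feature named Hba-a2 took 28.3% and 28.6%, and the first took 13.4% and 12.2%. Hbb, a beta globin, took 2.55% (2.52 to 2.58) in Control and 3.44% (3.40 to 3.48) in SC300. LOC100134871, a beta globin that RefSeq names Hbbl1, took 0.703% and 0.585%. These genes are near copies of each other, and reads of 1 could be counted to another, so the split between them is uncertain.

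The difference in Hbb was seen barcode by barcode. Across the 124 Control high-globin barcodes the Hbb share ran from 1.55 to 3.79% with a median of 2.52%, and across the 83 of SC300 from 1.84 to 6.57% with a median of 3.41%. Both ranges overlapped, and 72 of 83 SC300 barcodes but 23 of 124 Control barcodes were at 3% or more, a limit chosen after the values were seen. The part-globin barcodes gave the same order, 2.77% in Control and 3.65% in SC300, and so did the globin UMIs of all other barcodes, 3.17% and 3.95%. Barcodes of 1 library share its rats and its preparation and do not replicate the treatment.

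Hba-a3, an alpha globin, was the most uneven of the globin genes. It took 0.315% of globin UMIs in the high-globin barcodes of Control and 0.724% in those of SC300, a log2 ratio of 1.20 (1.14 to 1.26). It was at 0 in 50 of 124 Control barcodes and in 15 of 83 SC300 barcodes, although the median Control barcode of this class held 9418 globin UMIs, and reached 1.47% and 4.35% in the highest. The part-globin barcodes showed the same spread, with 16 of 48 and 10 of 46 at 0 and highest values of 1.39% and 4.94%. Which barcodes came from which of the 3 pooled rats is not recorded.

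**Figure D2:**
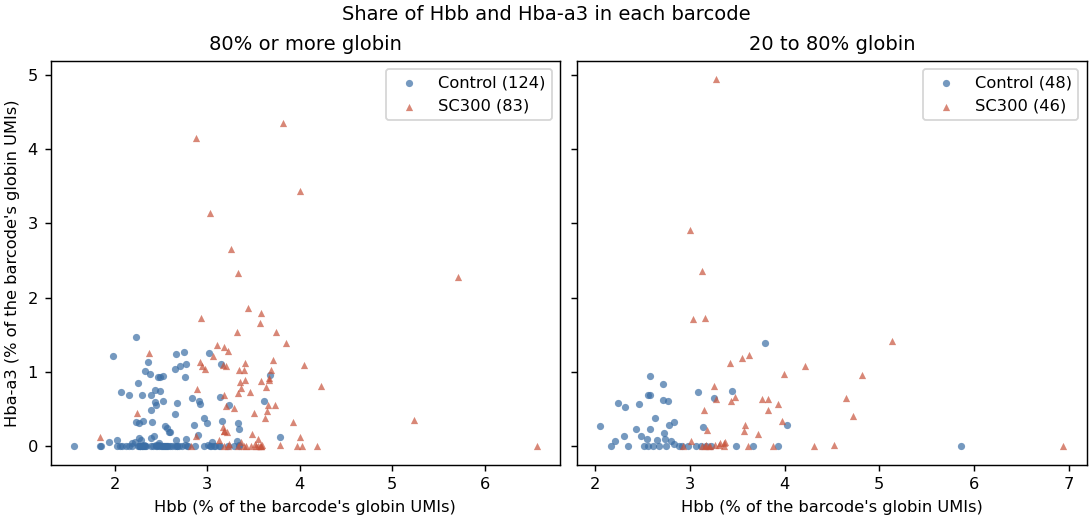
Share of Hbb (x axis) and of Hba-a3 (y axis) in the globin UMIs of each barcode, in %, for barcodes with 80% or more globin (left) and 20 to 80% (right); circles are Control and triangles SC300. SC300 barcodes lie further right (median Hbb 3.41% against 2.52% on the left), and in both libraries many barcodes lie at 0 for Hba-a3.

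Globin genes outside the rule had few UMIs, and they are counted among the non-globin genes below. LOC689064, which RefSeq names Hbb-bs, had 63 UMIs in the high-globin barcodes of Control and 53 in those of SC300 (868 and 877 per 1000000 UMIs outside the rule), 33 and 24 in the part-globin barcodes, and 5 and 9 in all others. Hbq1a, a theta globin, had 15 and 8 UMIs in the high-globin barcodes. The embryonic alpha-like Hbz and the beta-like Hbe2 and Hbg1 had no UMI in any barcode of either library. Hbe1 had 1 and 2 UMIs in the high-globin barcodes, 1 and none in the part-globin barcodes and none elsewhere.

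The label of these barcodes was checked on Alas2, the rate-limiting enzyme of haem synthesis in red cells, and on Hemgn, a nuclear regulator of erythroid genes. Alas2 had 3484 UMIs in barcodes rich in haemoglobin RNA of Control and 3032 in SC300, and only 115 and 73 in all other barcodes. It was seen in 118 of 124 Control and 78 of 83 SC300 high-globin barcodes, with a median of 16 and 26 UMIs and highest values of 75 and 78. In part-globin barcodes the medians were 22.5 and 21.5, with a UMI in 45 of 48 and 45 of 46. Hemgn was scarce, with 38 and 35 UMIs in barcodes rich in haemoglobin RNA and 2 and 5 in all others. So Alas2 marked nearly every one of these barcodes, whereas Hemgn had a UMI in 19 of 124 and 15 of 83 high-globin barcodes.

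All non-globin levels below are CPM, UMIs summed over barcodes and scaled to 1000000 non-globin UMIs, because globin UMIs set the membership. They are not divided by gene length, so levels are compared between barcodes and not between genes, and the gene of a list with the most UMIs need not be its most abundant RNA. Among 4249 non-globin genes with 50 or more UMIs in barcodes rich in haemoglobin RNA, 717 (16.9%) were 2-fold or more above the other barcodes in both libraries, and 257 (6.05%) were 2-fold or more below. With every barcode weighted alike, 329 were higher and 1326 lower, so the balance turns with the weighting. In the high-globin barcodes alone 176 of 281 genes (62.6%) were higher and 6 (2.14%) lower, and the median gene stood at a log2 ratio of 2.17 in Control and 2.06 in SC300. Since 281 genes carry enough UMIs there through being frequent in these barcodes, that shift is a property of the choice. The minimum for the 4249 genes was likewise set on barcodes rich in haemoglobin RNA alone, so genes low there drop out.

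The genes furthest above the other barcodes were genes of red cells. In all barcodes rich in haemoglobin RNA, the log2 ratio over the other barcodes was 10.9 in Control and 11.5 in SC300 for Alas2, 10.7 and 9.86 for Alox15, a lipoxygenase of the maturing reticulocyte, and 9.35 and 9.58 for Ahsp, the chaperone of free alpha globin. It was 9.86 and 8.54 for Lgals5, galectin-5 of rat red cells, and 8.51 in both for Slc4a1, the anion exchanger band 3. Car1 (carbonic anhydrase 1), Cd52 (a small surface glycoprotein) and Aqp1 (a water channel) completed the 10 highest together with Hemgn and LOC689064. The 10 lowest were Oxt, Sst, Stmn2, Stmn3, Ly6h, LOC691995, Tubb3, Caly, Mal and Scg5, which are mostly genes of neurons. Oxt, the oxytocin precursor, stood at -6.12 and -5.76.

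In the high-globin barcodes, haem synthesis genes with enough UMIs stood above the other barcodes. In the part-globin barcodes 2 of 6 were 2-fold or more higher in both libraries, beside 16.9% of all genes there. Alas2 reached 32799 CPM in Control and 33651 in SC300 in the high-globin barcodes, against 2.33 and 1.33 in the other barcodes. Fech, which inserts iron into the ring as the last step, reached 4119 and 4386 CPM against 22.7 and 21.6. Urod, an earlier step, reached 1088 and 943 against 77.8 and 73.0. All 4 haem genes with 50 or more UMIs in the high-globin barcodes were 2-fold or more above the other barcodes in both libraries, beside 62.6% of all genes there. Cpox had 4 UMIs in Control and none in SC300 there, and Uros 3 and none.

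Most iron genes described here stood above the other barcodes. Ftl1, the ferritin light chain, stood at 37759 CPM in Control and 39676 in SC300 in the high-globin barcodes, against 1303 and 1458 in the others. Fth1, the heavy chain, stood at 34204 and 26649 against 5246 and 4236. Slc25a37, the mitochondrial iron importer mitoferrin, stood at 455 and 331 against 2.95 and 3.07. Tfrc, the transferrin receptor that takes up iron, had 3 UMIs in Control and none in SC300 in the high-globin barcodes, but 386 and 290 in the part-globin barcodes (542 and 402 CPM against 83.8 and 69.6 in the others). Ftl1 reads can be shared with near copies such as LOC100360087, to which RefSeq gives Ftl1 as an older name.

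Of 17 membrane genes listed, 4 had 50 or more UMIs in the high-globin barcodes, and these 4 were 2-fold or more above the other barcodes in both libraries, beside 62.6% of all genes there. Rhd, the Rh blood group protein, had 3141 and 2019 CPM in the high-globin barcodes against 11.4 and 6.21 in the others. Slc4a1 had 1502 and 943 CPM against 0.668 and 0.384, Kel (Kell blood group) 496 and 463 against 0.445 and 0.311, and Aqp1 482 and 414 against 0.162 and 0.183. Rhag, the partner of the Rh protein, had 14 and 3 UMIs in the high-globin barcodes, 3 and 2 in the part-globin barcodes and none elsewhere. Ank1 (ankyrin), which ties the membrane to its skeleton, had at most 2 UMIs in either class of barcode rich in haemoglobin RNA.

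Transcription factor messages were few. Klf1, a master activator of adult beta globin, had 33 and 45 UMIs in the high-globin barcodes (455 and 745 CPM against 1.56 and 1.19 in the others), and Nfe2 had 14 in each library. Gata1 had no UMI in any barcode of either library. In the high-globin barcodes a count of 0 still allows up to 41.3 CPM in Control and 49.7 CPM in SC300, counted as 3 UMIs. Tal1 and Zfpm1 had 16 and 19 and 32 and 23 UMIs in the part-globin barcodes, but at 10.9 and 11.0 and 10.3 and 10.8 CPM they were also found in the other barcodes.

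Chaperone, redox and metabolic genes stood above the other barcodes as well. Prdx2, a peroxiredoxin, reached 17206 CPM in Control and 15923 in SC300 among high-globin barcodes against 550 and 534 in the others. Bpgm, which makes the oxygen-releasing 2,3-bisphosphoglycerate, reached 14588 and 13242 against 114 and 116. Car2, carbonic anhydrase 2, reached 11392 and 10494 against 526 and 634, and Ahsp 8362 and 6753 against 1.68 and 1.15. All 7 genes of this list with 50 or more UMIs were 2-fold or more higher in both libraries, again beside 62.6% of all genes.

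Late maturation genes, which act as organelles and proteins are cleared, were as clearly present. Tmcc2 stood at 19699 CPM in Control and 15741 in SC300 in the high-globin barcodes against 58.6 and 62.7 in the others. Mkrn1, a ubiquitin ligase, stood at 10511 and 8491 against 50.5 and 49.6. Bnip3l, the mitophagy receptor through which reticulocytes shed mitochondria, stood at 7948 and 8177 against 258 and 266. All 6 with 50 or more UMIs were again higher in both libraries. Together, 25 of the 61 erythroid genes listed had 50 or more UMIs in the high-globin barcodes. All 25 were 2-fold or more higher in both libraries, beside 62.6% of all genes there. Over all barcodes rich in haemoglobin RNA, 33 of 39 with 50 or more UMIs were, beside 16.9% of all genes. Since these lists were chosen with the data known, the counts describe the barcodes and support no label.

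Beyond the lists, a few messages were frequent in the high-globin barcodes, and they were named after their values were seen. Tpt1, the translationally controlled tumour protein, had the most UMIs of these with 39522 CPM in Control and 42456 in SC300 (2442 and 2528 in the others). Ybx3, a cold shock RNA-binding protein, had 33901 and 32211 CPM against 134 and 142. Alox15 had 18927 and 15807 against 1.76 and 2.23. Isca1, an iron-sulfur cluster assembly factor, had 8720 and 8177 against 137 and 133, and Slc25a39, a mitochondrial carrier, had 10414 and 10478 against 111 and 113. Ybx3 and Alox15 thus differed most from the rest of the tissue among these 5.

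**Figure D3:**
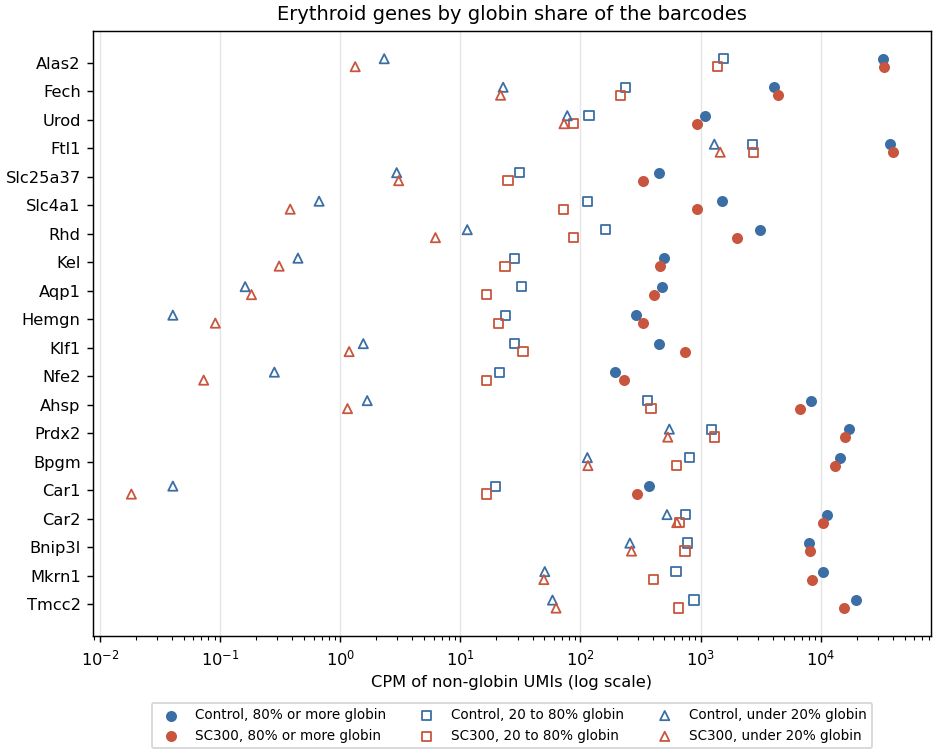
Levels of 20 erythroid genes in CPM of non-globin UMIs (log axis), summed over the barcodes with 80% or more globin (filled circles), 20 to 80% globin (squares) and under 20% globin (triangles), in Control (blue) and SC300 (red). For each gene the levels fall in this order in both libraries, for Alas2 from 32799 and 33651 through 1548 and 1385 to 2.33 and 1.33 CPM.

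The part-globin barcodes also carried red cell messages, beside the messages of vessel cells. There, 28 erythroid list genes had 50 or more UMIs. Of these, 17 were 2-fold or more above the other barcodes in both libraries, beside 16.9% of all 4127 genes. Per 10000 globin UMIs, Alas2 had 20.7 UMIs in the high-globin barcodes of Control and 19.6 in its part-globin barcodes, and 22.9 and 19.2 in SC300. Tmcc2 had 12.4 and 11.2 in Control and 10.7 and 9.09 in SC300. Ybx3 had 21.4 and 23.6 in Control and 21.9 and 25.9 in SC300. Genes that other cells also use were higher in the part-globin barcodes on this scale, with Tpt1 at 24.9 and 72.4 in Control and 28.9 and 78.6 in SC300. Other red cell genes also stood higher per globin UMI in the part-globin barcodes. Slc4a1 had 0.946 and 1.45 in Control and 0.642 and 1.00 in SC300, Alox15 11.9 and 15.9 and then 10.8 and 12.7, and Prdx2 10.8 and 15.7 and then 10.8 and 18.2. So the ratio to globin was close in both classes for Alas2, Tmcc2 and Ybx3 but not for every red cell gene.

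Depth outside globin also changed that ratio within the high-globin class. Alas2 per 10000 globin UMIs was 15.7 in Control and 16.7 in SC300 in barcodes with under 200 genes, and 22.1 and 25.04 in those with 200 or more. Tmcc2 was 5.72 and 4.86 in the former and 14.3 and 12.7 in the latter. Tpt1 did not follow, with 31.3 and 32.6 against 23.1 and 27.6. The number of genes that divides these barcodes rises with the non-globin UMIs themselves, so the split and this ratio are not independent.

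Endothelial and mural markers stood out in the part-globin barcodes. The endothelial list (Cldn5, Flt1, Bsg and others, 18 genes in the table) summed to 27644 CPM in Control and 29749 in SC300, against 4226 and 4655 in the other barcodes. The gene of the list with the most UMIs was Bsg, basigin, with 12940 and 13990 CPM. Cldn5, the tight-junction claudin of the blood-brain barrier, had 4756 and 5187 CPM against 629 and 659, and Flt1, a VEGF receptor, 1248 and 1312 against 147 and 146. Slc2a1, the glucose carrier of the barrier, had 1064 and 1205 against 268 and 249. Of 17 listed genes with 50 or more UMIs, 16 were 2-fold or more higher in both libraries, and only Ly6e was not, beside 16.9% of all 4127 genes, while 5.19% of those were lower. The median log2 ratio was 2.91 in Control and 2.89 in SC300, against 0.13 for all genes in each.

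Mural markers followed the endothelial ones. The list of 16 genes summed to 3550 CPM in Control and 4531 in SC300 in part-globin barcodes, against 549 and 673 in the others. Vtn (vitronectin) had 911 and 1138 CPM, Higd1b 546 and 649, Abcc9, a potassium channel subunit of pericytes, 563 and 660, and Rgs5, a pericyte regulator of G-protein signalling, 542 and 699. All 10 with 50 or more UMIs were 2-fold or more higher in both libraries, beside 16.9% of all 4127 genes, and the other 6 had too few UMIs in these barcodes to be counted. Of the genes that smooth muscle uses, Acta2 had 0 and 7 UMIs, Tagln 1 and 6, Myh11 0 and 1 and Cnn1 0 in both libraries, whereas Myl9 had 108 and 168 (152 and 233 CPM against 33.8 and 39.1).

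The high-globin barcodes held few of these markers. The mural list had 3 UMIs in Control and 2 in SC300, 14 of its 16 genes being at 0 in each. The endothelial list had 85 UMIs in Control and 203 in SC300 (1171 and 3360 CPM). Bsg, which red cells also carry as a surface protein, gave 44 and 126 of these, and 65.9 and 71.4% of those sat in 1 barcode. Cldn5 had a UMI in 5 of 124 and 2 of 83 high-globin barcodes, and in 39 of 48 and 40 of 46 part-globin barcodes, where the medians were 57 and 76.5 UMIs. Rgs5 had no UMI in any high-globin barcode, but one in 30 of 48 and 34 of 46 part-globin barcodes.

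**Figure D4:**
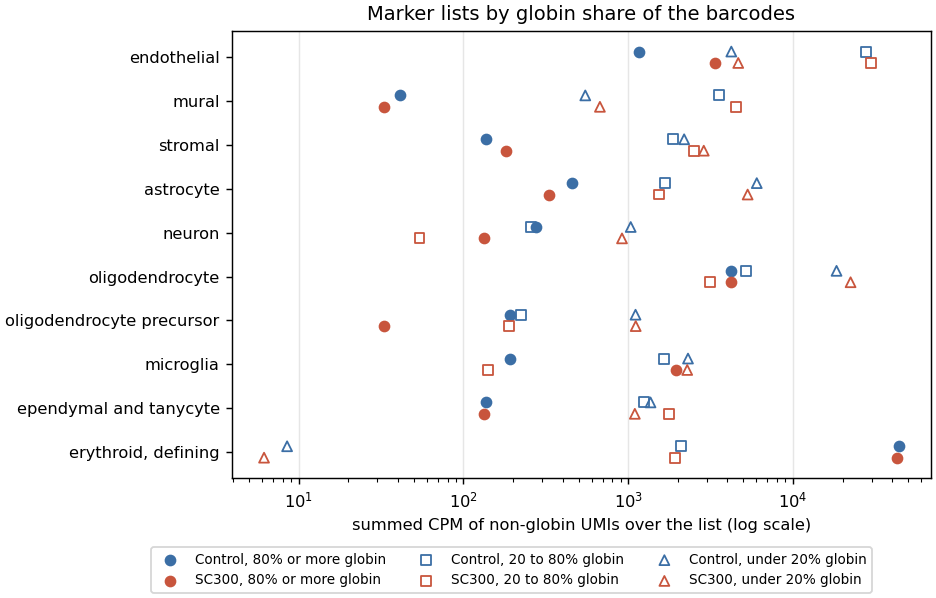
Summed level of 10 marker lists in CPM of non-globin UMIs (log axis) over barcodes with 80% or more globin (filled circles), 20 to 80% globin (squares) and under 20% globin (triangles), Control in blue and SC300 in red. The squares lie furthest right for the endothelial list (27644 and 29749 CPM) and the mural list, while the oligodendrocyte and astrocyte squares lie below the triangles.

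Each barcode with 200 or more genes was next given to the cell-type list whose summed CPM stood highest over the library mean, provided 3 of its markers were detected. Of the endothelial or mural barcodes, 38 of 518 in Control (7.34%, 5.24 to 9.93) and 42 of 504 in SC300 (8.33%, 6.07 to 11.1) were rich in haemoglobin RNA. Of the barcodes of all other lists, 21 of 3638 (0.577%, 0.358 to 0.881) and 12 of 3763 (0.319%, 0.165 to 0.556) were. These shares did not overlap in their counting intervals in either library. By list, 21 of 335 endothelial and 17 of 183 mural barcodes were rich in haemoglobin RNA in Control, and 22 of 311 and 20 of 193 in SC300. Vessel markers thus described 37 of 48 part-globin barcodes in Control and 40 of 46 in SC300.

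The remaining barcodes fell to few lists. In Control 4 part-globin barcodes were best marked by astrocyte genes, 3 by microglia genes and 1 each by neuron, oligodendrocyte, ependymal and tanycyte, and platelet genes. The barcode marked by platelet genes also held 158 UMIs of the endothelial Cldn5, and 1 of those marked by astrocyte genes held 69, so these labels are uncertain. In SC300 2 went to astrocyte genes and 1 each to oligodendrocyte and to ependymal and tanycyte genes, and 2 to no list. The oligodendrocyte precursor list took no barcode rich in haemoglobin RNA, out of 485 and 474. Of the high-globin barcodes with 200 or more genes, 54 and 36 had too few markers of any list, and 9 and 7 went to oligodendrocyte genes. Myelin genes such as Mbp are abundant in this tissue, and the oligodendrocyte list stood in the high-globin barcodes at 4229 and 4221 CPM, below the 18397 and 22389 CPM of the other barcodes.

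Blood cells other than red cells left little trace. The lymphocyte list (9 genes) had no UMI in any barcode rich in haemoglobin RNA, against 403 and 489 UMIs in the others. The neutrophil list had none in the high-globin barcodes and 28 and 27 in the part-globin barcodes, of which Lcn2, which endothelial cells also make, gave 24 in Control. S100a8, the abundant neutrophil message, had no UMI in the high-globin barcodes. The platelet list had none and 2 UMIs in the high-globin barcodes and 12 and 10 in the part-globin barcodes, with Ppbp at 0 throughout.

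Endothelial barcodes with and without globin were then compared. In Control 20 part-globin barcodes and 314 others were best marked by endothelial genes, and in SC300 20 and 289. Among 1429 genes with 50 or more UMIs in the former, 42 (2.94%) were 2-fold or more higher than in the latter in both libraries, and 0 were lower in both. The minimum was set on the part-globin side alone, so genes low there drop out. That balance, and the red cell genes at its top, follow from this and from the choice by globin. Of the 42, 11 were in the erythroid lists. The highest were Alas2, Alox15, Rhd, Ahsp, Lgals5, Cd52, Tmcc2, Rbm38, Mkrn1 and Fech, named by order of their ratio after the values were seen. Both sides were chosen by the endothelial list, so its level is largely fixed by that choice. None of its 16 genes tested moved 2-fold in both libraries, and the list summed to 41491 and 37247 CPM in the part-globin barcodes against 38804 and 40709 CPM in the others. Mitochondrial UMIs were 11.8 and 13.5% of non-globin UMIs against 13.4 and 13.996%. Scrublet called none of the 20 part-globin endothelial barcodes in either library, and 7 and 12 of the others.

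Outside the erythroid lists, 3 genes of that comparison were picked after their values were seen. Rsad2, an interferon-induced antiviral enzyme, stood at 83.2 and 123 CPM against 18.4 and 13.9, and Hist3h2ba, a histone, at 72.1 and 178 against 9.98 and 21.7. Both were also frequent in the high-globin barcodes, Rsad2 with 1157 and 894 CPM against 7.16 and 3.60 in all other barcodes and Hist3h2ba with 2328 and 2516 against 179.6 and 201. Apln, the peptide apelin, stood at 350 and 130 against 36.3 and 57.3 in the endothelial comparison. These levels rest on 13 to 63 UMIs a library in 20 barcodes each, and how the UMIs fall over those barcodes was not examined. Agt, angiotensinogen, a gene of the astrocyte list, stood at 44.4 CPM against 478 in Control but at 723 against 378 in SC300, from 8 and 211 UMIs. Aqp4, of the same list, went the same way with 22.2 against 198 and 332 against 155. Slc1a3, also of that list, stood at 38.8 against 292 and 216 against 208. How the UMIs of these astrocyte list genes fall over the 20 barcodes was not examined either.

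SC300 was compared with Control in the high-globin barcodes first. Among 281 non-globin genes with 50 or more UMIs, 10 (3.56%) were 2-fold or more higher in SC300 and 6 (2.14%) were 2-fold or more lower, and the median log2 ratio was -0.10. None of the 25 erythroid list genes among them was 2-fold apart. Their median log2 ratio was -0.21, with 9 whose counting interval lay below 0 and 1, Klf1, above it, beside 49 below and 30 above among all 281 genes. Alas2 gave a log2 ratio of 0.04, Fech 0.09, Ftl1 0.07 and Prdx2 -0.11. Among the larger differences within the lists were -0.67 for Slc4a1, -0.64 for Rhd and -0.63 for Gpx1, a glutathione peroxidase, on the low side, and 0.71 for Klf1.

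Lgals5 was the red cell gene furthest apart. It had 807 UMIs in the high-globin barcodes of Control and 323 in those of SC300 (11117 and 5346 CPM), a log2 ratio of -1.06 (-1.25 to -0.87). A barcode held 0 to 48 UMIs with a median of 4 in Control, and 0 to 28 with a median of 2 in SC300, so the barcodes overlapped widely, and no barcode held more than 5.95 or 8.67% of the total. The part-globin barcodes gave 449 and 154 UMIs, and their log2 ratio per globin UMI was -1.43 (-1.70 to -1.16), against -0.95 (-1.14 to -0.76) in the high-globin barcodes. In the other barcodes it was at 1.72 and 1.64 CPM. The difference was therefore seen in both classes. It was not seen per globin UMI in the barcodes with 1 to 20% globin, where 58 and 88 UMIs gave a log2 ratio of 0.07 (-0.42 to 0.58). The comparison is of 1 pool of 3 rats against another.

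Arpc2, a subunit of the actin-branching Arp2/3 complex, was lowest of all with 71 and 12 UMIs, a log2 ratio of -2.30 (-3.32 to -1.41). Specc1, Eef1e1, Jund and Pabpc1 were the other genes 2-fold or more lower. Pabpc1, the poly(A)-binding protein, had 168 and 69 UMIs. No Control barcode held more than 18.9% of the UMIs of any of these 6 genes.

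Of the 10 genes higher in SC300, 5 had more than 50% of their SC300 UMIs in 1 barcode. C1qb, a complement gene of microglia, had 4 UMIs in Control and 46 in SC300, and 95.7% of the latter were in 1 barcode. Cst3 (cystatin C) had 65 and 256 UMIs with 85.5% in 1 barcode, Tmsb4x 134 and 323 with 61.3%, and LOC100364435 18 and 54 with 72.2%. The mitochondrial genes Mt-nd3, Mt-nd2, Mt-nd4, Mt-cyb and Mt-nd1 made up the other 5, with 41.5 to 47.2% in 1 barcode. Mitochondrial UMIs were 5.72% of non-globin UMIs in Control and 10.4% in SC300, but 1 SC300 barcode with 80.7% globin held 37.7% of them. Without the barcode with the most mitochondrial UMIs in each library the shares were 5.53 and 6.82%, and the medians over barcodes were 4.54 and 4.62%. So the 2 libraries lay close in the mitochondrial share of the typical high-globin barcode.

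**Figure D5:**
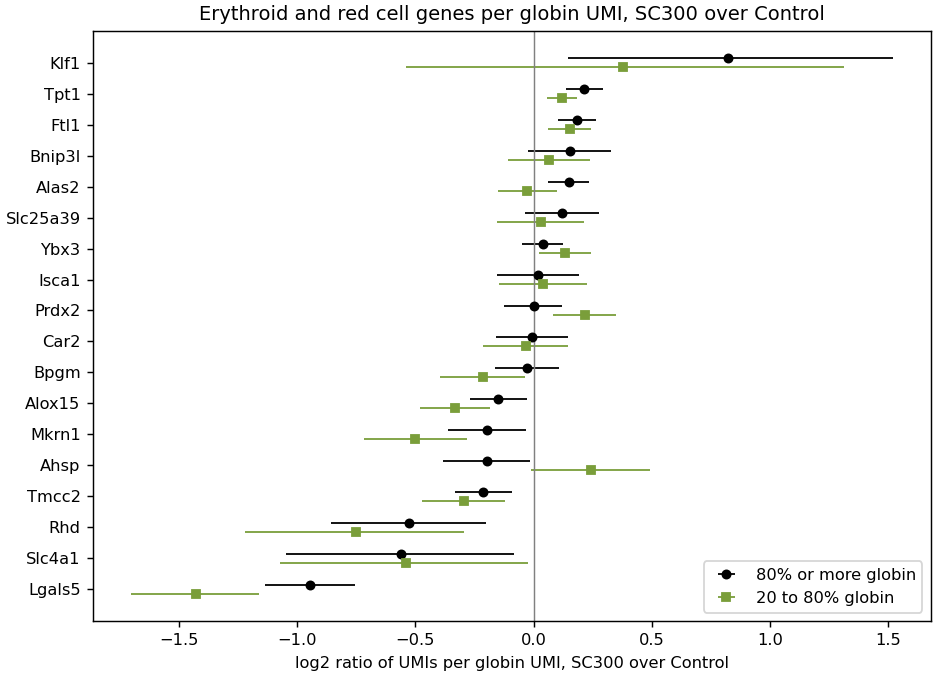
Log2 ratio of UMIs per globin UMI, SC300 over Control, for 18 erythroid and red cell genes in barcodes with 80% or more globin (black circles) and 20 to 80% globin (green squares); bars are 95% exact counting intervals. Lgals5 lies lowest in both classes (-0.95 and -1.43) and Klf1 highest (0.82 and 0.38), while Isca1, Prdx2 and Car2 lie near 0 in the high-globin barcodes.

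Scaled to globin, most red cell genes stayed within a narrow range. In the high-globin barcodes the log2 ratio of UMIs per globin UMI was 0.15 (0.06 to 0.23) for Alas2, 0.18 (0.10 to 0.26) for Ftl1, 0.21 (0.14 to 0.29) for Tpt1 and -0.01 (-0.16 to 0.14) for Car2. It was -0.53 (-0.86 to -0.20) for Rhd and -0.56 (-1.05 to -0.08) for Slc4a1, and the part-globin barcodes gave -0.75 (-1.22 to -0.30) and -0.54 (-1.07 to -0.02). Klf1 gave 0.82 (0.14 to 1.52) and 0.38 (-0.54 to 1.31). Ahsp changed side, with -0.20 (-0.38 to -0.01) in the high-globin and 0.24 (-0.01 to 0.49) in the part-globin barcodes. Alas2 and Car2 gave -0.03 in the part-globin barcodes, Ftl1 0.15 and Tpt1 0.12. Rhd and Slc4a1 were thus lower in SC300 in both classes, and so were Tmcc2 (-0.21 and -0.30), Mkrn1 (-0.20 and -0.50) and Alox15 (-0.15 and -0.33), whose intervals also lay below 0, whereas Ftl1 and Tpt1 were higher in both. In the barcodes with 1 to 20% globin some values went other ways, with 0.73 (0.20 to 1.28) for Alox15 and -0.89 (-1.36 to -0.43) for Alas2. Car2 gave 0.88 (0.56 to 1.22) there and Ahsp -0.75 (-1.38 to -0.13). Slc4a1 (-1.21, -2.24 to -0.22) and Tmcc2 (-0.65, -1.20 to -0.11) were lower in SC300 there too. Ftl1 (0.33, 0.19 to 0.47) and Tpt1 (0.69, 0.60 to 0.78) were higher, and Mkrn1 gave -0.18 (-0.78 to 0.42). That class was only 24 Control and 25 SC300 barcodes. It held 375556 non-globin and 46410 globin UMIs in Control, and 815092 and 67015 in SC300. The part-globin class held 712392 and 563772, and then 721238 and 520151. Per globin UMI, genes that other cells also use, such as Tpt1, Ftl1 and Car2, can move with that balance, and its part was not tested.

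Over all barcodes rich in haemoglobin RNA, 34 of 4249 genes (0.8%) were 2-fold or more higher in SC300 and 103 (2.42%) were 2-fold or more lower, with a median log2 ratio of -0.04. With every barcode weighted alike, 542 were higher and 424 lower, so this balance turns too. The 39 erythroid list genes tested had none past 2-fold in either direction and a median of -0.32. Their intervals lay below 0 for 19 and above 0 for none, beside 463 below and 279 above among all 4249 genes. By role, the medians were -0.20 for haem synthesis (6 genes), -0.42 for iron handling (5), -0.64 for membrane and skeleton (7), -0.13 for transcription and receptor (4), -0.35 for chaperone, redox and metabolism (8) and -0.49 for late maturation (9). Non-globin UMIs of the high-globin barcodes were 72593 in Control and 60415 in SC300, and those of the part-globin barcodes 712392 and 721238, so that a smaller part of the sum came from the former in SC300. That part moves with every erythroid value over all these barcodes, whereas the values by class above do not mix the 2 classes.

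In the part-globin barcodes vessel markers stayed within 2-fold between the libraries, with the mural genes mostly higher in SC300. There, the endothelial list gave a log2 ratio of 0.11 (0.08 to 0.13) for its sum and a median of 0.13 over 17 genes, and the mural list gave 0.35 (0.28 to 0.43) and 0.34 over 10. Counting intervals lay above 0 for 8 endothelial and 8 mural genes and below 0 for 2 and none, beside 259 above and 422 below among all 4127 genes. The other barcodes gave 0.14 (0.13 to 0.15) and 0.30 (0.27 to 0.32) for the sums. Over all barcodes rich in haemoglobin RNA the sums gave 0.14 and 0.38, but at a limit of 50% globin the endothelial sum turned to -0.15 and the mural one rose to 0.88, which was also its value with every barcode weighted alike. The endothelial sum fell to 0.028 without the Scrublet calls and to 0.024 without the 5 deepest barcodes of each library. In the part-globin barcodes the 13 mitochondrial genes moved with the mural list. Their median log2 ratio was 0.33, with intervals above 0 for 10. The stromal sum there gave 0.435 (0.33 to 0.54), from 1329 and 1819 UMIs. In SC300, Col1a1 gave 138 of these, Dcn 98 and Igf2 302, with 100, 99.0 and 71.2% in 1 barcode, whereas Apod had 811 and 620. The ependymal and tanycyte sum gave 0.51 (0.38 to 0.63). The oligodendrocyte sum gave -0.74 (-0.81 to -0.66) and the neuron sum -2.26 (-2.79 to -1.75), the latter from 184 and 39 UMIs. These intervals do not cover the spread between barcodes. What part the genes of these lists and the mitochondrial genes had in the result was not tested. Cdh5, the endothelial cadherin, stood at 0.45 and Kdr, the main VEGF receptor, at 0.44, while Ocln, occludin, stood at -0.50. Pdgfrb, the PDGF receptor of pericytes, stood at 0.61 and Myl9, a myosin light chain, at 0.62. No gene of the 2 lists with 50 or more UMIs was 2-fold apart, beside 0.824% of genes higher and 2.59% lower among the 4127 of these barcodes.

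The genes past 2-fold in the part-globin barcodes (34 higher and 107 lower) included genes with nearly all their UMIs in 1 barcode. Agrp, the agouti-related peptide of arcuate neurons, had 266 UMIs in Control, all in 1 barcode, and 1 in SC300. Npy, also of those neurons, had 59 with 91.5% in 1 barcode, and Sst (somatostatin) 75 with 97.3%. Col1a1, a fibroblast collagen, had 0 in Control and 138 in SC300, all in 1 barcode, and 99.0% of the 98 UMIs of Dcn (decorin) in SC300 were in 1 barcode. In 1 barcode alone lay 50% or more of the UMIs of the higher library for 43 of the 107 lower genes and for 5 of the 34 higher ones.

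Microglia genes were the other block. Csf1r, their growth factor receptor, had 96 UMIs in Control and 4 in SC300, and Ctss, cathepsin S, 74 and 3. The microglia list summed to 1179 UMIs in the part-globin barcodes of Control (1655 CPM) and 102 in SC300 (141 CPM), and all 6 of its genes with 50 or more UMIs were 2-fold or more lower, beside 2.59% of all genes in these barcodes. C1qa had the most UMIs, 336 in Control. Microglia genes best marked 3 part-globin barcodes in Control and none in SC300, where the 1 barcode they best marked had 80.3% globin and so fell just inside the high-globin class. In that class the list went the other way, with 14 UMIs in Control and 118 in SC300. In the other barcodes the list stood at 2307 and 2282 CPM. Cd74 and RT1-Da, of the class II presentation machinery, had 110 and 64 UMIs in Control and none in SC300, with 71.8 and 54.7% in 1 barcode.

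RT1-A1, a class I histocompatibility gene, differed in the part-globin barcodes and in the tissue at large. It had too few UMIs for a ratio in the high-globin barcodes. It had 137 UMIs in Control and 5 in SC300 in the part-globin barcodes, a log2 ratio of -4.79 (-6.44 to -3.54), and the fullest Control barcode held 15.3% of them. Over all barcodes rich in haemoglobin RNA it had 160 and 7 UMIs, or 204 and 8.96 CPM. In the other barcodes it stood at 105 CPM in Control and 3.76 in SC300. Class I genes have near copies, and reads of 1 could be counted to another.

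Among the genes higher in SC300, Igf2 (insulin-like growth factor 2) had 36 and 302 UMIs with 71.2% of the latter in 1 barcode, and Cdkn1c, a cell cycle inhibitor, 29 and 154 with 87.7%. Apoc1, Ifit1bl, Lix1, Crip1 and Pdgfd were spread over more barcodes. Crip1, a LIM-domain protein, had 36 and 103 UMIs with 26.2% in 1 barcode, a log2 ratio of 1.499 (0.94 to 2.09), and stood at 128 and 112 CPM in the other barcodes. Pdgfd, a platelet-derived growth factor, had 16 and 44 UMIs with 13.6% in 1 barcode. Oxt had 18 and 59 UMIs over all barcodes rich in haemoglobin RNA, while it stood at 1591 and 4103 CPM in the other barcodes, and its level there moves with it.

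Immediate-early genes, which dissociation is known to raise, were higher in the part-globin barcodes than in the others. The list of 16 genes summed to 11118 CPM in Control and 11044 in SC300, against 5107 and 4521, and 8 of its 14 genes with 50 or more UMIs were 2-fold or more higher in both libraries, beside 16.9% of all genes. Fos had 1684 and 1906 CPM against 917 and 847, and Klf4 695 and 725 against 170 and 140. The list summed in the high-globin barcodes to 1074 and 728 CPM. Between the libraries the list had a median log2 ratio of 0.02 in the part-globin barcodes. The other barcodes are of all cell types, while most part-globin barcodes were marked by vessel genes. Neither dissociation nor that makeup was tested as a source of the immediate-early levels.

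Interferon response genes were also higher in the part-globin barcodes than in the others, 6 of the 6 with 50 or more UMIs being 2-fold or more higher in both libraries, beside 16.9% of all genes. The other 6 of the 12 listed had too few UMIs there. Ifitm3 had 448 and 562 CPM against 74.3 and 80.5, and Ifi27 1581 and 1055 against 478 and 221. B2m, the light chain of class I molecules, gave in the high-globin barcodes 436 of 452 UMIs of the list in Control and 305 of 322 in SC300, at 6006 and 5048 CPM against 1440 and 1369 in the others. Whether the vessel makeup of the part-globin barcodes sets these levels was not tested.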

How the data were processed

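RNA was measured with the droplet-based 3′ kit of 10x Genomics (version 3) in 2 libraries, Control and SC300, each from 3 pooled rats. The deposited values are raw UMI counts per gene and barcode for 32883 features, made by the authors with Cell Ranger (3.0.1 in the submitters' processing notes, a later version in the study's methods for demultiplexing) and the Ensembl 96 rat transcriptome. They hold 4488 and 4524 barcodes, of which 4296 and 4379 have 200 or more genes. The methods name this as a filter. The cell numbers they state as analysed equal all deposited barcodes, while those they state as obtained are smaller. No such filter was applied here.

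UMIs were summed over barcodes and divided by the non-globin total (CPM), with a minimum of 50 UMIs over both libraries for a ratio, 2-fold as the limit for a call, and a count of 0 set to 3 UMIs. Shares have exact Clopper-Pearson 95% intervals and ratios exact conditional binomial ones. The 1 library a group allows no test. UMIs limit amplification copies, and intervals cover counting error only. Doublets were kept, and Scrublet (scanpy 1.11.5) calls were left out as an alternative. Ratios were checked on simulated counts. Python 3.11.15, numpy 2.4.6, scipy 1.17.1 and pandas 2.3.3 were used.

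Named genes are list genes with 20 or more UMIs, Alas2, Hemgn, the globin genes, and the 10 highest and 10 lowest ratios of each comparison. Others are said to be chosen after their values were seen, and listed genes with fewer UMIs are given only as counts. The barcodes and the 22 gene lists were chosen with earlier results of these data known. Pecam1, Abcb1a, Meg3, Cbr2, Foxj1 and Cd79a were not analysed here, and a few other listed genes are not reported here.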

Additional observations from a re-analysis of the deposited data

How the results depend on the processing

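No paired analysis was possible because each group is 1 library. Without replicates every value rests on 1 pool of rats, and shallow classes limit it further: 72593 and 60415 non-globin UMIs in the high-globin barcodes. The share of barcodes rich in haemoglobin RNA stayed lower in SC300 at each limit tried, with log2 ratios of -0.39 at 10%, -0.59 at 50% and -0.59 at 80%, and of -0.32 (-0.74 to 0.09) among barcodes with 200 or more genes and -0.27 (-0.90 to 0.35) among those with fewer, where the counting interval includes 0. The part-globin barcodes alone gave -0.07 (-0.69 to 0.54). The settings at 80% globin, at 20 to 80%, and without 1 barcode were chosen after seeing the data.

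Genes 2-fold or more apart (SC300 higher and lower, 34 and 103 in the report) numbered 79 and 123 at a limit of 10% globin, 16 and 52 at 50%, 0 and 3 in barcodes under 200 genes, 542 and 424 with every barcode weighted alike, 10 and 6 at 80% or more globin, 186 and 320 with a minimum of 20 UMIs and 14 and 51 with 100. With the 5 deepest barcodes of each library left out, 57 were lower. Without the barcode with the most non-globin UMIs, high-globin barcodes gave 6 and 5. The erythroid median (-0.32) was -0.49 at 10%, -0.18 at 50%, -0.38 with 200 or more genes, -0.14 weighted alike, -0.26 without mitochondrial and ribosomal protein genes, -0.28 by median of ratios, -0.35 without the 5 deepest, -0.21 at 80% or more, -0.17 at 20 to 80% and -0.39 with a minimum of 20 UMIs, and turned to 0.071 under 200 genes (10 genes).

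The endothelial sum (0.14) was 0.063 at 10%, 0.40 weighted alike, 0.20 without mitochondrial and ribosomal protein genes, 0.18 by median of ratios, 0.024 without the 5 deepest, 1.52 at 80% or more, 0.11 at 20 to 80% and 0.028 without Scrublet calls, and turned to -0.15 at 50%. The mural sum (0.38) was 0.47 at 10%, 0.88 at 50% and 0.88 weighted alike. Both lists had too few UMIs for a ratio under 200 genes, and the mural list at 80% or more. Genes 2-fold or more from the other barcodes (717 higher and 257 lower) numbered 338 and 64 at 50%, 55 and 7 under 200 genes, 329 and 1326 weighted alike, and 176 and 6 at 80% or more, and 126 were lower with a minimum of 100 UMIs. The causes were not tested.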
